A study of Mus musculus with 5 samples.

Results

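Chemokine genes of cytotoxic T cells were examined for Runx3-bound and H3K4me1-marked regions. The genes were Ccl3, Ccl4, Ccl5, Ccl9 and Xcl1, that is 5 of 22350 annotated protein-coding genes on chromosomes that carry a Runx3-bound region. A region was counted at a gene when it shared at least 1 bp with the gene body extended by 20 kb on each side (the window) on mm9. This gave 11 of 9135 Runx3-bound regions and 18 of 18992 H3K4me1-marked regions. The windows of Ccl3 and Ccl4 overlap, so 2 Runx3-bound and 3 H3K4me1-marked regions lie in both, and each was counted once in these totals.

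The regions came from ChIP-seq of CD8-TC (CD8+ T cells) from the spleen of ICR mice, which had been purified by binding to magnetic beads with anti-CD8. All cells were activated through the TCR with plate-bound anti-CD3e and soluble anti-CD28 for 2 days and then kept for 4 days in 100 u/ml recombinant human IL-2, and no resting or Runx3-deficient cells were analysed here. The 5 libraries were 2 precipitations with an in-house polyclonal anti-Runx3 antibody, 2 with NIS (non-immune serum, the control) and 1 with an anti-H3K4me1 antibody. The reads of the repeats were joined and gave 1 peak list per antibody, so no value below has a replicate error and no test over samples was possible. The lists hold positions only, with 0 columns of height or score, so the read depth behind a region is unknown. They carry no expression values either, so the labelled cell type was not checked against its markers, and a region at a gene does not tell whether the gene was transcribed. Intervals are exact (Clopper-Pearson) 95% binomial intervals and cover counting error among regions only.

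Chemokines are small secreted proteins that direct the migration of leukocytes through receptors coupled to G proteins. CD8-TC secrete several of them after activation, together with cytotoxic granules and cytokines. Ccl3 (MIP-1α), Ccl4 (MIP-1β) and Ccl5 (RANTES) attract T cells and macrophages to sites of inflammation. Ccl9 (MIP-1γ) is a mouse ligand of Ccr1, and Xcl1 (lymphotactin) attracts the dendritic cells that carry Xcr1 and cross-present antigen to CD8-TC. Runx3 is a transcription factor of cytotoxic lymphocytes that recognises the RUNX motif. H3K4me1, a methylation of histone H3 in which a single methyl group sits on a lysine, is abundant at enhancers, whereas active promoters mostly carry the trimethylated form at the start itself.

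The central 200 bp of the Runx3-bound region nearest to each gene start is shown first, because the results below refer to the motifs in them. Sequences are from the mm9 reference (C57BL/6J, whereas the cells were from ICR mice), on the plus strand, 5′ to 3′. Capitals mark RUNX motifs, that is the form TGTGGT, the form TGTGGC, the form TGCGGT or the form TGCGGC on either strand. A capital run of ACCACA is thus the first of these forms on the minus strand.
Ccl5, 4.68 kb upstream (chr11:83348600-83348799): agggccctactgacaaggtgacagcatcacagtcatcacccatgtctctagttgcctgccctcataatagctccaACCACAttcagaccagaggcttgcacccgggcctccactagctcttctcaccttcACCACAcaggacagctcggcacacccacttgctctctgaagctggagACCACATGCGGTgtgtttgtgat
Ccl9, 0.73 kb upstream (chr11:83392768-83392967): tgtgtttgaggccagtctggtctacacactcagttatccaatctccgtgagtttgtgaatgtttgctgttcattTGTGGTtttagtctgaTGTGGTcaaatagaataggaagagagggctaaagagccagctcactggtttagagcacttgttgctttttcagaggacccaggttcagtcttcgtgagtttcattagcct
Ccl4, 4.97 kb upstream, the nearest also to Ccl3 (chr11:83471021-83471220): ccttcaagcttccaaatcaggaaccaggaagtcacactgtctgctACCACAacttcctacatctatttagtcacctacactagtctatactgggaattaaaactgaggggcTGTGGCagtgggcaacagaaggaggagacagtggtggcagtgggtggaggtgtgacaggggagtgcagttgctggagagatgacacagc
Ccl4, 0.319 kb upstream (chr11:83475668-83475867): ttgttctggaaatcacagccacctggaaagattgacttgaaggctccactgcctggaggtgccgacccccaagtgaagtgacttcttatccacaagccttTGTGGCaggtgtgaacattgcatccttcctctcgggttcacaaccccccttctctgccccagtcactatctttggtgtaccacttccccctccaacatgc
Xcl1, 0.334 kb upstream (chr1:166865893-166866092): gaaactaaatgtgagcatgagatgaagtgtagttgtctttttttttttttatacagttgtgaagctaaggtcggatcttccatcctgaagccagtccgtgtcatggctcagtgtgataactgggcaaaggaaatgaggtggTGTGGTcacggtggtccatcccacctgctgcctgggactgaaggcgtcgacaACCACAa
The Ccl5 stretch held the most RUNX motifs of the 5, namely 4 at bases 76, 131, 178 and 184, counted from 1 at the left end. The last pair, TGTGGT on the minus strand and TGCGGT on the plus strand, stood back to back with 0 bases between them. RUNX motifs with 0 bases between them were found in 118 of the 9135 Runx3-bound regions (1.29%). The Ccl9 stretch held 2 copies of TGTGGT in the same direction, 10 bases apart. The Ccl4 stretch 0.319 kb upstream held 1 TGTGGC at bases 101 to 106, followed without a gap by the T-box core AGGTGT at bases 107 to 112. Such a direct junction of a RUNX and a T-box motif was found in 20 of the 9135 regions (0.219%). T-box factors of CD8-TC include T-bet and Eomes, and a match of letters is not evidence that either was bound.

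All 5 genes had at least 1 Runx3-bound region in their window, and so did 34.2% of all 22350 protein-coding genes. All 5 also had at least 1 H3K4me1-marked region (39.4% of all genes) and at least 1 Runx3-bound region that overlapped H3K4me1 (17.8% of all genes). The windows of the chemokine genes are short, since the gene bodies measure 1.51 to 5.72 kb and the median protein-coding gene measures 15.4 kb. Among the 6363 genes no longer than Ccl9, 21.3% had a Runx3-bound region and 24.2% an H3K4me1-marked region. The ranks given below for each gene, by number of regions or by the part of the window covered, are over all protein-coding genes. They are not matched for length, and a share of cover can reach high values more easily in a short window. The median gene had 0 Runx3-bound regions. Of the 5 chemokine genes, 4 lie in 1 cluster on chromosome 11 and their regions are neighbours, so the 5 genes are not 5 separate observations.

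**Figure D1:**
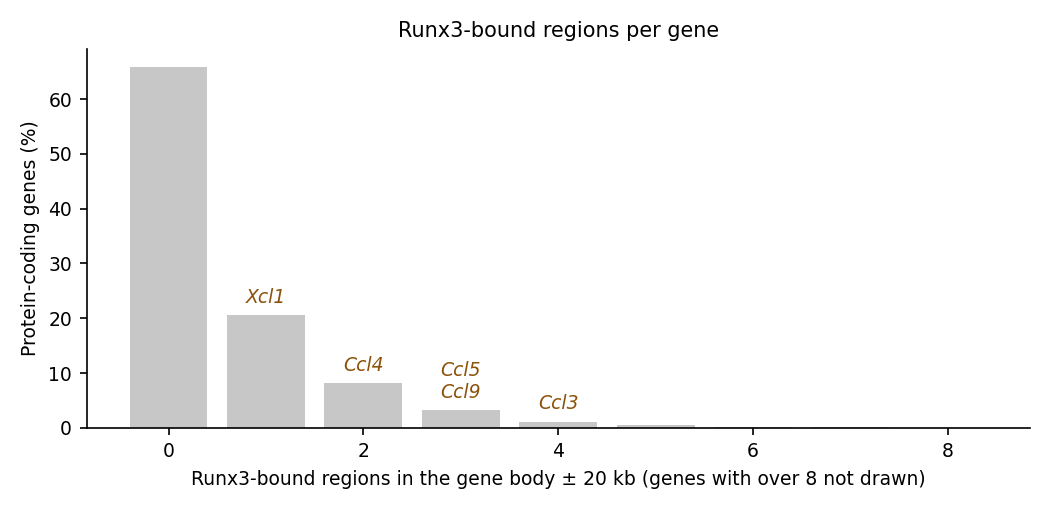
Histogram of the number of Runx3-bound regions per protein-coding gene (horizontal axis, regions in the gene body ± 20 kb; vertical axis, percent of 22350 genes), with the chemokine genes written above the bar of their count. The bar at 0 holds 65.8% of the genes, Xcl1 stands at 1 region, Ccl4 at 2, Ccl5 and Ccl9 at 3 and Ccl3 at 4.

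Ccl5, a ligand of Ccr1 and Ccr3, is a late product of activated CD8-TC. Ccl5 (ENSMUSG00000035042.2, chromosome 11, 83339280 to 83344020, minus strand) had 3 Runx3-bound regions, all upstream of the gene and all overlapping H3K4me1. Of all protein-coding genes, 5.43% had 3 or more. The nearest (83348433 to 83348966, 534 bp) was centred 4.68 kb from the start and lay across the edge of an H3K4me1-marked region, which covered 54.7% of it. The next (83350355 to 83350825, 471 bp) was 6.57 kb upstream and wholly inside the widest H3K4me1-marked region at these genes (83349922 to 83355836, 5915 bp). The most remote (83363438 to 83364271, 834 bp) was 19.8 kb upstream, inside another H3K4me1-marked region, and was the widest Runx3-bound region at the chemokine genes. Of all Runx3-bound regions, 5.70% were at least as wide.

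H3K4me1 covered 16.5 kb or 36.9% of the Ccl5 window, and 0.233% of protein-coding genes had a window covered at least as much. The gene had 6 H3K4me1-marked regions. Of these, 2 lay on the gene body without any Runx3-bound region, 1 over a coding exon and the downstream end (83338473 to 83339753) and 1 in an intron (83340055 to 83341362). The Ccl5 start itself was unmarked, with the nearest H3K4me1 edge 727 bp upstream and 2.66 kb downstream. No Runx3-bound region lay within the gene, and the next one downstream was 239 kb from the start.

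Ccl3, which attracts monocytes and T cells, is the shortest gene of the group at 1.51 kb. Ccl3 (ENSMUSG00000000982.5, chromosome 11, 83461346 to 83462857, minus strand) had 4 Runx3-bound regions, all overlapping H3K4me1, and 2.19% of protein-coding genes had 4 or more. None lay near its start. The nearest Runx3-bound edges were 7.96 kb upstream and 8.70 kb downstream. Downstream of the gene, a pair of regions with centres 1.01 kb apart lay 9.99 kb (83452567 to 83453158, 592 bp) and 8.98 kb (83453596 to 83454157, 562 bp) from the start. The first was inside an H3K4me1-marked region. The second lay over the gap between 2 neighbouring H3K4me1-marked regions and was covered for 52.1% of its length at its ends, with the centre unmarked. The upstream pair belonged equally to the window of Ccl4.

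At the Ccl3 start there was H3K4me1 but no Runx3. An H3K4me1-marked region without Runx3 (83462005 to 83463698, 1694 bp) covered the start and 56.4% of the gene body. In the whole Ccl3 window 7 H3K4me1-marked regions covered 19.8 kb or 47.7%, the highest share of the 5 genes. Of protein-coding genes, 0.0537% had a window covered at least as much.

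Ccl4, an attractant of T cells and monocytes, is transcribed from the opposite strand, away from Ccl3. Ccl4 (ENSMUSG00000018930.3, chromosome 11, 83476086 to 83478185, plus strand) had 2 Runx3-bound regions, and 13.6% of protein-coding genes had 2 or more. Both lay between Ccl3 and Ccl4 and in both windows. The first (83470817 to 83471423, 607 bp) was 4.97 kb upstream of Ccl4 and inside an H3K4me1-marked region of 4144 bp that held no other Runx3-bound region. The second (83475448 to 83476087, 640 bp) was centred 0.319 kb upstream and ended on base 2 of the gene. It was the only Runx3-bound region at the 5 genes to touch a gene body, and it covered the whole 200 bp before the Ccl4 start. The H3K4me1-marked region around it (83474266 to 83477927, 3662 bp) also covered the start and reached over 87.7% of the gene body.

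Ccl9, a ligand of Ccr1, had 3 Runx3-bound regions, of which 1 was upstream and 2 were downstream of the gene (ENSMUSG00000019122.7, chromosome 11, 83386421 to 83392138, minus strand). The upstream region (83392717 to 83393018, 302 bp) was centred 0.73 kb from the start with its near edge at 579 bp. It was the narrowest Runx3-bound region at the chemokine genes, and 95.0% of all Runx3-bound regions were at least as wide. It was also the only one of the 11 without H3K4me1. Both downstream regions, 9.14 kb (83382800 to 83383197, 398 bp) and 18.1 kb (83373815 to 83374281, 467 bp) from the start, lay inside H3K4me1-marked regions.

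The body of Ccl9 held 0 bp of H3K4me1, in contrast to Ccl3, Ccl4 and Ccl5. The nearest H3K4me1-marked region was 8.23 kb downstream of the Ccl9 start, and upstream the next began 49.4 kb away, near Ccl3. The 3 H3K4me1-marked regions in its window covered 7.73 kb or 16.9%, and 3.0% of protein-coding genes had a window covered at least as much. To approximate how far reads could be placed, the 32-base words that occur once in the genome were counted. They made up 85.6% of the Ccl9 window, compared to 95.4 to 96.2% for Ccl3, Ccl4 and Ccl5. Within the gene bodies the shares were closer, 94.0% at Ccl9, 95.8% at Ccl4, 98.2% at Ccl5 and 100% at Ccl3. The authors used uniquely aligned reads, and the part of repeated sequence in these counts was not tested.

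Xcl1 (ENSMUSG00000026573.7, chromosome 1, 166861775 to 166865658, minus strand) lies apart from the other chemokine genes. Its window held 1 Runx3-bound region (166865736 to 166866248, 513 bp), centred 0.334 kb upstream with the near edge 78 bp from the start. An H3K4me1-marked region (166865877 to 166866845, 969 bp) covered 72.5% of it on the side away from the gene and ended 219 bp before the start. Neither list had a region within the Xcl1 body or downstream, and the nearest Runx3-bound region on that side was 120 kb from the start. H3K4me1 covered 2.15 kb or 4.90% of the window, which 18.0% of protein-coding genes equalled or exceeded. Of the 32-base words in the Xcl1 window, 82.5% occurred once in the genome, the lowest share of the 5 windows. Within the Xcl1 body the share was 96.8%.

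The limit of 20 kb cut through a further group of regions upstream of Xcl1. The next Runx3-bound region (166885777 to 166886255) had its near edge 20.1 kb from the gene, just outside the window, while the H3K4me1-marked region that contains it began 18.8 kb from the gene and was counted. Beyond it, Runx3-bound regions were centred 24.7 and 30.8 kb upstream, and both touched H3K4me1. H3K4me1-marked regions were centred 23.4, 26.7, 29.6 and 38.6 kb upstream. Runx3-bound regions 85.6 and 119 kb upstream overlapped no H3K4me1. The nearest protein-coding gene upstream of Xcl1 is Tbx19, 202 kb away. For the other genes, the Runx3-bound regions nearest to the limit were at 19.4 kb (inside) and 29.8 kb (outside) for Ccl5, at 12.1 and 22.2 kb for Ccl9, at 12.6 and 68.3 kb for Ccl3, and at 4.66 and 21.9 kb for Ccl4. An H3K4me1-marked region ended 20.001 kb from Ccl4 and was left out of its count, although it was counted at Ccl3.

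**Figure D2:**
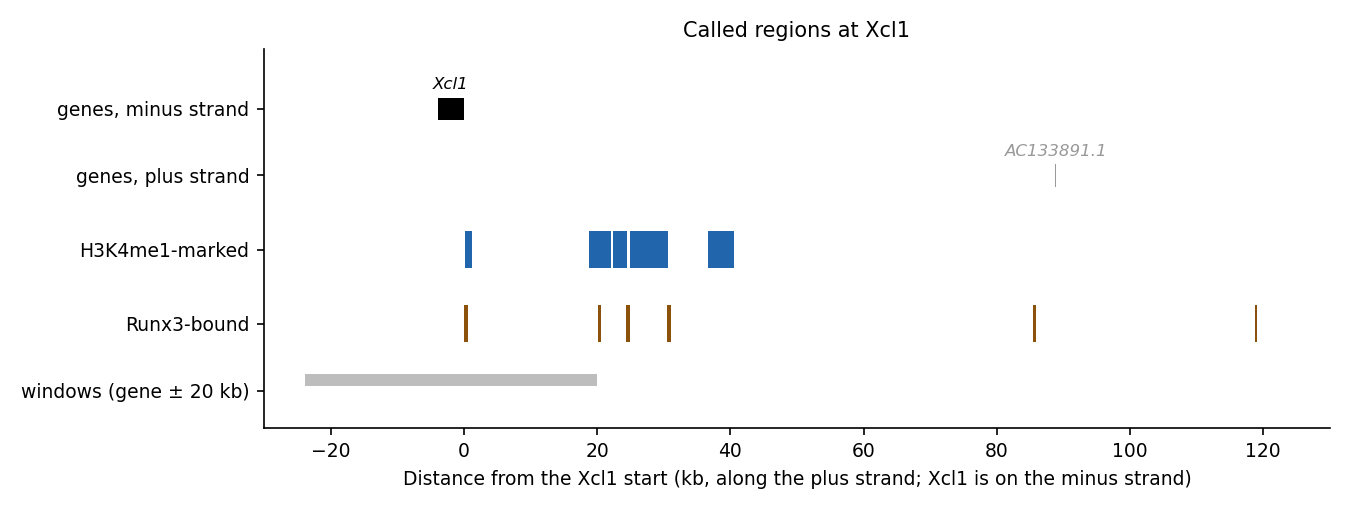
Map of Runx3-bound (brown) and H3K4me1-marked (blue) regions around Xcl1, with genes in the upper rows and the window as a grey bar; the horizontal axis gives the distance from the Xcl1 start in kb along the plus strand, so that upstream of Xcl1 is to the right. A single Runx3-bound region stands at the start, and a group of 3 begins just right of the window, 20.4 to 30.8 kb upstream.

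Gene starts were then compared. A Runx3-bound region was centred under 1 kb from the start of 3 of the 5 genes (Ccl4, Ccl9 and Xcl1), and of 8.84% of all protein-coding genes. The start lay inside an H3K4me1-marked region at 2 of the 5 genes (Ccl3 and Ccl4), and at 1.29% of all protein-coding genes. Each of the 4 combinations was therefore seen. Ccl4 had both at its start, Ccl3 had H3K4me1 alone, Ccl9 and Xcl1 had Runx3 upstream of an unmarked start, and Ccl5 had neither. Of the 3 Runx3-bound regions under 1 kb from a start, 2 overlapped H3K4me1, namely those at Ccl4 and Xcl1 (66.7%, interval 9.43 to 99.2%). Over all Runx3-bound regions under 1 kb from an annotated transcript start, 480 of 2404 did so (19.97%). With 3 regions this comparison has little precision.

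In the 200 bp directly upstream of the starts, Ccl3 and Ccl9 had 1 RUNX motif each, whereas Ccl4, Ccl5 and Xcl1 had 0, and 31.8% of the 200 bp stretches before protein-coding gene starts held at least 1. The Runx3-bound region at Ccl4 covered these 200 bp completely, and its RUNX motifs lay further upstream. The Runx3-bound region at Xcl1 covered 123 bp of them. The NF-kB consensus, bound by the Rel family factors that act downstream of the T cell receptor, occurred before Ccl5 and before Ccl9, 1 match each (3.45% of all such stretches). The ETS motif occurred 3 times before Ccl4, 2 times before Xcl1 and 1 time before Ccl3 and Ccl5 each, and 51.1% of all such stretches held it.

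**Figure D3:**
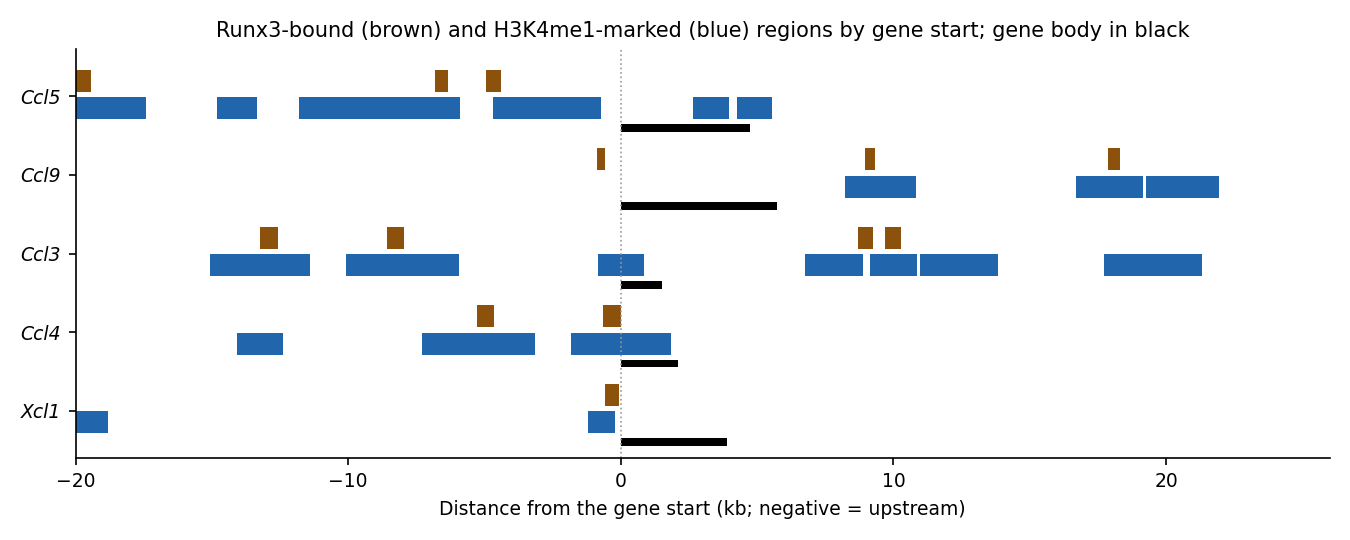
Runx3-bound (brown) and H3K4me1-marked (blue) regions of each chemokine gene by distance from its own start (horizontal axis in kb, upstream to the left, cut off at 20 kb upstream), with the gene body in black. Ccl4 has both marks at the start, Ccl3 has H3K4me1 only, Ccl9 and Xcl1 have Runx3 at 0.73 and 0.334 kb upstream, and the nearest Runx3-bound region of Ccl5 is 4.68 kb upstream.

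The 4 genes on chromosome 11 span 138.9 kb from the end of Ccl5 to the end of Ccl4 (83339280 to 83478185). This interval held 10 Runx3-bound regions, or 7.20 per 100 kb, compared to 0.611 per 100 kb on chromosome 11 and 0.357 in the genome. It held 17 H3K4me1-marked regions, or 12.2 per 100 kb, compared to 1.30 on chromosome 11 and 0.743 in the genome. H3K4me1 covered 32.3% of the interval and 1.39% of the genome. Since the interval was chosen by the genes that carry these regions, the densities are a description.

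The regions fell into 2 blocks separated by an empty stretch. The first block reached from the downstream end of Ccl5 to upstream of Ccl9 (83338473 to 83393018, 54.5 kb) and held 6 Runx3-bound and 10 H3K4me1-marked regions, with 47.4% covered by H3K4me1. The second reached from downstream of Ccl3 to the end of Ccl4 (83441539 to 83477927, 36.4 kb) and held 4 Runx3-bound and 7 H3K4me1-marked regions, with 54.4% covered. Between them 48.5 kb had no region of either list (83393019 to 83441538). Ccl6, a chemokine gene next to Ccl9, and E230016K23Rik lie in this stretch. Of its 32-base words, 92.5% occurred once in the genome. The share was 95.4 to 96.2% in the windows of Ccl3, Ccl4 and Ccl5. It was 85.6% in that of Ccl9, which reaches into the stretch, and 90.4% over the windows of the 5 genes together. Stretches without a region also bounded the cluster, 226.3 kb beyond Ccl5 and 71.9 kb beyond Ccl4.

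**Figure D4:**
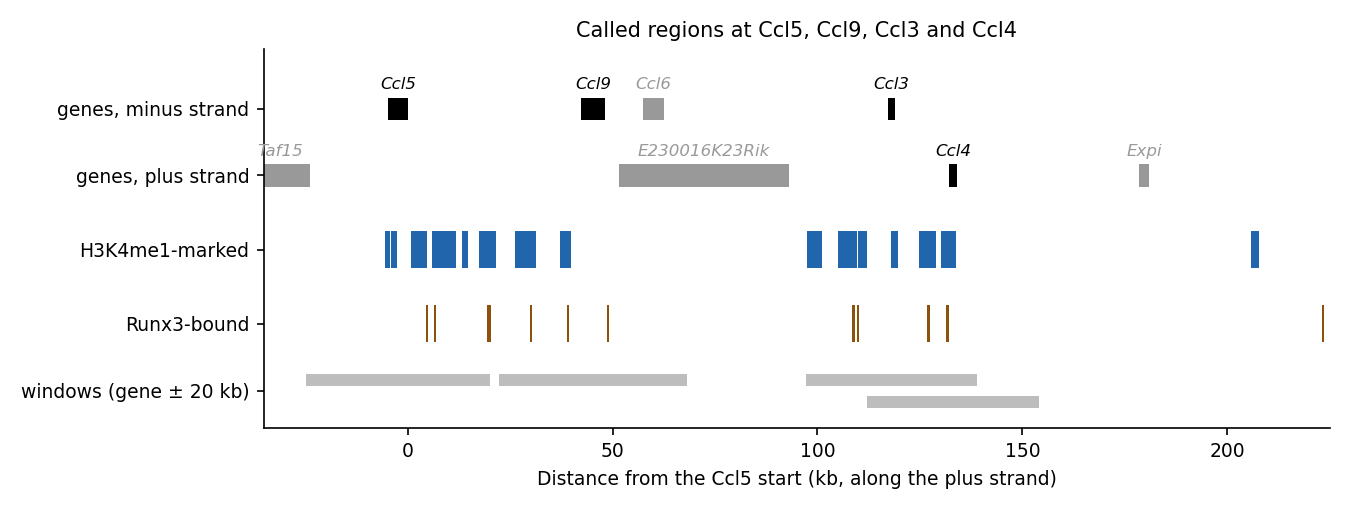
Map of the chemokine cluster on chromosome 11, with genes by strand in the upper rows (chemokine genes of the group in black, other genes in grey), H3K4me1-marked (blue) and Runx3-bound (brown) regions below and the windows as grey bars; the horizontal axis gives the distance from the Ccl5 start in kb along the plus strand. The regions form a block of 54.5 kb from Ccl5 to Ccl9 and a block of 36.4 kb at Ccl3 and Ccl4, with 48.5 kb between them that hold Ccl6 and no region.

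Over all 11 Runx3-bound regions, 10 overlapped H3K4me1 (90.9%, interval 58.7 to 99.8%), compared to 57.3% of all Runx3-bound regions, a value just below the interval. Of these, 7 lay wholly inside an H3K4me1-marked region (63.6%, interval 30.8 to 89.1%, all regions 34.7%), 2 across an edge (all regions 15.1%) and 1 over a gap between H3K4me1-marked regions (all regions 7.53%). The region without H3K4me1, at Ccl9, belonged to a class that made up 42.7% of all Runx3-bound regions. Conversely, 11 of the 18 H3K4me1-marked regions shared bases with a Runx3-bound region (61.1%, interval 35.7 to 82.7%), compared to 29.2% of all H3K4me1-marked regions. The H3K4me1-marked regions at the chemokine genes were 969 to 5915 bp wide with a median of 2636.5 bp, and the median of the whole list was 1592 bp. The intervals treat regions as independent, whereas 10 of the 11 lie in 1 cluster.

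The Runx3-bound regions lay mostly outside genes and close to each other. Of the 11, 10 were outside every annotated gene (90.9%, all regions 35.7%), and the remaining one touched the first bases of Ccl4. The windows were mostly flank, 20 kb on each side of gene bodies of 1.51 to 5.72 kb. A high share outside genes therefore follows largely from the choice of windows and says little about the regions themselves. Another Runx3-bound centre lay within 10 kb of 9 of the 11 (81.8%), compared to 33.5% of all regions. No interval is given, since neighbouring regions count each other and were gathered from windows around neighbouring genes. The exceptions were the region at Xcl1 and the most remote region of Ccl5, whose nearest neighbours were 20.02 and 10.2 kb away. The median distance from the nearest chemokine gene start was 6.57 kb, with a range of 0.319 to 19.8 kb, and 7 of the 11 were upstream of that start. Widths ranged from 302 to 834 bp with a median of 534 bp, close to the 521 bp of the whole list. GC content ranged from 44.3 to 52.0% with a median of 46.6% (all regions 49.1%).

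RUNX motifs were found in all 11 Runx3-bound regions (interval 71.5 to 100%), as in 92.6% of all regions, a share that the interval includes. There were 29 matches in all, 1 to 4 per region with a median of 2, and the median over the whole list was also 2. Of the 29, 19 were of the form TGTGGT and 8 of the form TGTGGC. The form TGCGGT occurred 2 times and the form TGCGGC 0 times. TGTGGT was present in 10 of the 11 regions (90.9%, interval 58.7 to 99.8%, all regions 69.6%), whereas TGCGGC was present in 0 of 11 (upper limit of the interval 28.5%, all regions 16.3%). The regions with 4 matches were those 4.68 and 19.8 kb upstream of Ccl5 and the one at Xcl1, and 18.0% of all regions held 4 or more. Of the matches, 20 of 29 lay within 100 bp of the centre of their region. The central 200 bp held a RUNX motif in 10 of the 11 regions (90.9%, interval 58.7 to 99.8%). The share of all regions was 78.7%, which the interval includes. The region 8.98 kb from the Ccl3 start, which lies over a gap in H3K4me1, was the exception, with a single TGTGGC 182 bp from its centre and 0 RUNX motifs in the central 200 bp.

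**Figure D5:**
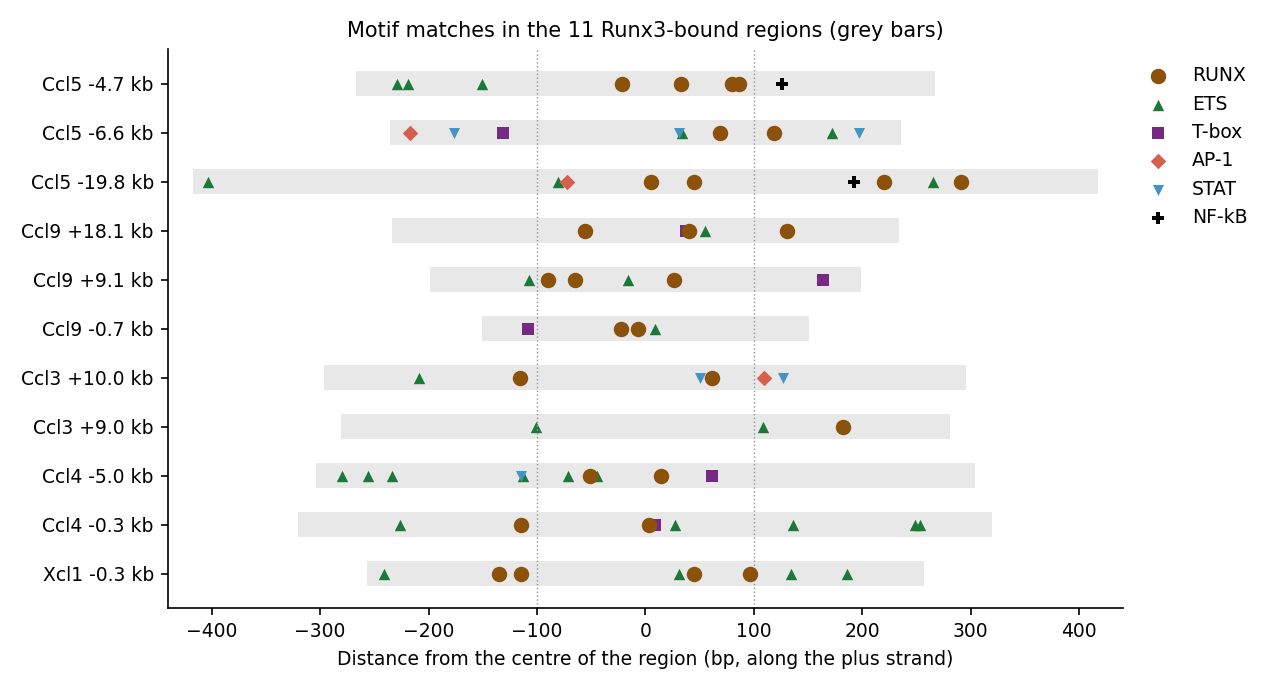
Positions of motif matches in the 11 Runx3-bound regions, each drawn as a grey bar and named by its nearest chemokine gene and the distance from that gene's start; the horizontal axis gives the distance from the centre of the region in bp, and dotted lines mark 100 bp on either side. RUNX matches (brown circles) lie between the dotted lines in 10 of the 11 regions, the exception being the one 9.0 kb downstream of the Ccl3 start. Of all Runx3-bound regions, 78.7% had a RUNX match in the central 200 bp. ETS matches (green triangles) occur in all 11, and in 88.9% of all Runx3-bound regions.

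Motifs of other factors active in CD8-TC were searched on both strands in the same regions. The ETS motif (the form AGGAAA, the form AGGAAG, the form CGGAAA or the form CGGAAG), bound by factors such as Ets1 and Fli1, was found in 11 of 11 regions, compared to 88.9% of all regions, with 6 matches in the region 4.97 kb upstream of Ccl4 and 5 in the region at the Ccl4 start. The T-box core AGGTGT was found in 6 of 11 (54.5%, interval 23.4 to 83.3%, all regions 29.5%), namely in both regions of Ccl4, all 3 of Ccl9 and the one 6.57 kb upstream of Ccl5. In the region 18.1 kb from the Ccl9 start this match shares its last letters with a RUNX motif, because AGGTGT and TGTGGC overlap there. AP-1, searched as TGACTCA or TGAGTCA, was found in 3 of 11 (27.3%, interval 6.02 to 61.0%, all regions 13.5%), at Ccl5 and Ccl3. The STAT motif TTCNNNGAA, of the type bound by Stat5 downstream of the IL-2 receptor, was found in 3 of 11 (all regions 21.5%), with 3 matches in the region 6.57 kb upstream of Ccl5. Of these, 1 shares letters with an ETS match. The NF-kB consensus was found in 2 of 11 (18.2%, interval 2.28 to 51.8%, all regions 8.47%), both at Ccl5. All of these intervals include the share of all regions. Within a gap of at most 50 bp, a RUNX motif stood beside an ETS motif in 8 of 11 regions (72.7%, interval 39.0 to 94.0%, all regions 57.4%) and beside another RUNX motif in 6 of 11 (54.5%, interval 23.4 to 83.3%, all regions 37.4%). It stood beside a T-box motif in 2 of 11 (18.2%, interval 2.28 to 51.8%, all regions 12.5%). For AP-1 this was 1 of 11 (9.09%, interval 0.230 to 41.3%, all regions 5.78%). These intervals also include the share of all regions.

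Other genes of the chemokine system were counted in the same way. Of 34 other chemokine ligand genes, 6 had a Runx3-bound region (17.6%) and 10 (29.4%) an H3K4me1-marked region, compared to 34.2 and 39.4% of all protein-coding genes. Most of these ligand genes are short as well, and among the genes no longer than Ccl9 the shares were 21.3 and 24.2%. The 6 were Ccl1 with 3 regions, Ccl6 and Cxcl16 with 2 each, and Ccl26, Cxcl9 and Cxcl10 with 1 each. The annotated body of Ccl1 is long (81990159 to 82119192), and the nearest Runx3-bound centre lay 91.1 kb from its start. The count for Ccl1 thus comes from a wide window, and the distance holds only for the start annotated there. Whether regions lie near a start within this long body was not tested. Both regions of Ccl6 were regions of Ccl9, whose window it shares. The region of Cxcl10 was the same as that of Cxcl9 and lay 21.5 kb from the Cxcl10 start. Cxcl9, a ligand of Cxcr3, was the one with a region near its start, centred 0.645 kb away. The monocyte and eosinophil attractants Ccl2, Ccl7, Ccl8, Ccl11 and Ccl12, in another cluster on chromosome 11, had 0 regions of both lists. They were singled out after their values were seen. Ccl1, next to Ccl8 in that cluster, had 3 Runx3-bound and 6 H3K4me1-marked regions in its wide window. Of all protein-coding genes, 65.8% had 0 Runx3-bound regions.

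Among receptors of the 5 chemokines, Ccr3 and Xcr1 had 1 Runx3-bound region each and Ccr1 had 0. The region of Xcr1 overlapped H3K4me1 and that of Ccr3 did not. Of 11 other secreted or surface products of cytotoxic T cells, 8 had a Runx3-bound region (72.7%). The share was 34.2% of all protein-coding genes and 21.3% of those no longer than Ccl9. Gzma, Gzmk, Prf1 and Fasl are longer than Ccl9, so the second share is not matched to the whole list. The window of Gzmk is the widest of these, and its nearest Runx3-bound centre lay 14.4 kb from its start. Fasl and Tnf had 4 regions each, Gzmb, Prf1 and Lta 3 each, Gzmc, Gzmk and Ifng 1 each, whereas Gzma, Il2 and Csf2 had 0. The 3 regions of Lta were also regions of Tnf, its neighbour. Of their 17 distinct regions, 11 overlapped H3K4me1, compared to 10 of the 11 regions at the chemokine genes and 57.3% of all Runx3-bound regions.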

How the data were processed

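The authors aligned ChIP-seq reads to mm9 with ELAND, joined the uniquely aligned reads of repeats and called peaks with MACS against joined NIS reads. The read sets had been brought to equal size by scaling down the larger. The deposited values were the first and last position (bp) of every peak, in 1 list per antibody, with no score or other column of values. Joining hides the spread between repeats, and unique alignment hides repeated sequence. The sample labels show 1 H3K4me1 library, whereas their protocol speaks of 2 experiments, so the number behind that list is unknown. The build mm9 is from the submitters' processing notes.

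Sequence and annotation were NCBIM37, which is mm9, and GENCODE vM1. Positions are counted from 1, distances run from the centre of a region unless an edge is named, and the start of a gene is its outermost annotated base. Both lists had 0 overlapping regions and 0 regions past a chromosome end. No test was run, and shares were set beside those of all genes or regions.

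The text names the 5 chemokine genes with all regions in their windows, genes in a window that hold a region, and every gene of the other lists with a Runx3-bound region. The genes, lists and motifs were chosen with earlier results of these data known. Counts at gene starts, upstream stretches, touching motifs, blocks and regions beyond the windows were added after the data were examined. Ccl28 and Cxcl11 were not analysed here, and 1 gene of the receptor list is not reported here. Alternatives were other flanks, overlap definitions, motif windows, gene sets, a width minimum and shorter words.

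Computations used Python 3.11.15, NumPy 2.4.6, SciPy 1.17.1, pandas 2.3.3, numba 0.67.0, pysam 0.24.0, samtools 1.23.1 and matplotlib 3.10.9. Functions were tested on simulated data and had 0 differences from direct counting.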

Additional observations from a re-analysis of the deposited data

How the results depend on the processing

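Of 27 alternatives for 8 results, 13 left the value within its limits and 14 moved it. With a flank of 5 kb, 6 Runx3-bound and 8 H3K4me1-marked regions remained, and Ccl3 lost its Runx3-bound regions, so that 4 of 5 genes had one. Among all protein-coding genes 23.5% then had a Runx3-bound and 28.6% an H3K4me1-marked region, and 2 other chemokine ligand genes had a Runx3-bound region. With a flank of 10 kb these values were 27.5%, 32.9% and 3 genes, and all 5 chemokine genes kept a Runx3-bound region. With a flank of 50 kb, 47.9% and 52.3% of the genes had such regions. Counting all annotated genes gave 27.3% and 32.03%. Keeping only regions at least as wide as the median of their list left 6 Runx3-bound regions. With words of 24 bases, 86.6% of the windows was unique. The share overlapping H3K4me1 was 81.8 to 90.9% under 4 other definitions of overlap, while that of all regions was 46.3 to 62.6%, and the share with a RUNX motif was 90.9 to 100% under 3 other definitions.

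No paired analysis was possible because each antibody had 1 peak list from joined reads. Leaving out a repeat and a stricter peak threshold were not run, since the lists hold neither repeats nor scores. The authors report fewer uniquely aligned reads for these cells than for resting CD8-TC. Read depth at a given position is unknown, so the absence of a region means only that none was called. The 11 Runx3-bound regions are few, and 10 of them lie in 1 cluster.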
